A study of Mus musculus with 24 samples.

Results

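The response of C2C12 cells to differentiation medium was followed in cells that carried only the empty vector. C2C12 is a mouse myoblast line, descended from the satellite cells of adult muscle, that divides in serum-rich growth medium and forms multinucleated myotubes in differentiation medium. All arrays described here came from cells transduced with pSuperR, a vector made to express short hairpin RNAs, without a hairpin insert, so both groups share the transduction. The groups were growth medium (GM) and differentiation medium (DM), and the labels give no composition or time for either. The members were chosen by title, as every vector array without p68 in its name: 12 of the 24 arrays of the series, 3 GM and 3 DM arrays on each of 2 Affymetrix designs called MA and MB. The other 12 arrays carried a short hairpin RNA (shRNA) against the RNA helicase p68 and entered the fitted spread and, at the end, a comparison of the responses. The stated purpose of the series was to follow muscle gene expression under interference with p68 and p72. The labels do not say that arrays of a group came from separate cultures, so the spread behind each p-value is that between arrays and may be technical alone.

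Skeletal muscle differentiation couples an exit from the cell cycle to a new programme of transcription. Myod1 is already made in dividing myoblasts, where Id proteins hold its partner E proteins; myogenin (Myog) and MEF2 factors follow, and turn on the genes of the sarcomere, of calcium release and of muscle energy supply. Cells align, fuse through membrane proteins such as myomaker and myomixer, and replace many widespread protein isoforms by muscle isoforms.

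Each value is a MAS5 signal, a linear intensity that the authors scaled to a trimmed mean near 150. Changes are given as log2 change, DM against GM, on the log2(signal + 15) scale, on which changes of dim genes come out too small, with the standard error of a limma fit and 3 arrays per group. A gene is said to have risen or fallen only where its adjusted p in that fit was under 0.05. A gene with several probe sets is represented by the one with the highest mean signal over the 12 arrays of its design. Signals of different probe sets are not levels that can be set against each other.

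The labelled cell type was checked against marker genes on the MA design. Among 9 myoblast markers, Myod1 had a mean signal of 1237 ± 81.9 (SD, n = 3) in GM and 1822 ± 256 (SD, n = 3) in DM. Des, Itga7, Cdh15 and Ncam1 were also measured, while Myf5 had means under 30 in both media and Vcam1 fell by 0.84 ± 0.25. Met was dim in GM, with a mean of 11.5, and rose by 1.46 ± 0.27, but did not pass on MB (-0.11 ± 0.25). Pax7 did not pass on MA (-0.33 ± 0.14) and fell on MB (-0.64 ± 0.19, adjusted p = 0.0405). Endothelial markers had means under 30 in both media for 6 of 7 genes, adipocyte and osteoblast or cartilage markers for 5 of 7 each, and macrophage markers for 4 of 8. The summed signals of the macrophage markers (213 to 304 in GM, 191 to 323 in DM), the endothelial markers (68.0 to 126, 90.3 to 184) and the osteoblast or cartilage markers (212 to 306, 154 to 300.1) overlapped between the media. That of the adipocyte markers was 340.1 to 404 in GM and 199 to 292 in DM, without overlap, and Cebpa, the brightest of them, fell by 0.68 ± 0.15. Of the other lists, Cd14 fell by 0.85 ± 0.196 and Adgre1 rose by 0.75 ± 0.23 among macrophage markers, a rise that did not pass without DM replicate 3 or GM replicate 3, and Sox9 fell by 0.55 ± 0.19, which did not pass without DM replicate 1 or 2 or GM replicate 1 or 4. Among 9 smooth muscle markers, Myh11, Myocd and Lmod1 had means under 30 in both media, Tagln (-1.77 ± 0.15), Cnn1 (-1.21 ± 0.18) and Actg2 (-1.28 ± 0.15) fell, and Acta2 and Des rose. The summed signal was 10788 to 11968 in GM and 11350 to 19082 in DM. The brightest of these was Acta2, at 6778, 7223 and 6699.6 in GM and 7314, 10272 and 12307 in DM, an early actin of differentiating myoblasts as well as of smooth muscle; its change of 0.498 ± 0.17 did not pass without DM replicate 2 or 3 or GM replicate 1 or 4, or with no filter (adjusted p from 0.0617 to 0.103).

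The arrays of a group correlated at 0.951 to 0.983 on the MA design and 0.825 to 0.879 on the MB design, with the lowest values in DM replicate 3 (MA) and DM replicate 2 (MB). Of the 44 contractile genes that rose on MA, DM replicate 3 was the highest DM array for 27. On MB, DM replicate 2 was the lowest DM array for 14 of 18, and 9.03% of its signals were under 15 against 15.6 to 19.2% in the other MB vector arrays. The ratio of 3′ to 5′ control probe signal was lower in DM by 0.0926 (MA) and 0.143 (MB) log2 units, with an exact two-sided permutation p of 0.1 each, the smallest that 3 against 3 arrays allow. The part of these differences in the results was not tested; counts without single arrays are given where they matter.

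Change of medium altered about as many genes upwards as downwards, but the large changes were mostly rises. On the MA design, 3429 of 14367 tested probe sets were higher (23.9%) and 3649 lower (25.4%) in DM, and on MB 813 of 19303 were higher (4.21%) and 965 lower (5.0%). By gene, 2008 of 8639 rose (23.2%) and 2350 fell (27.2%). The median change over all MA genes was -0.017. Among the probe sets that passed, 1370 were higher (9.54% of those tested) and 1414 lower (9.84%) by at least 2-fold, 119 and 37 by at least 8-fold, and 58 and 4 by at least 16-fold. Of the MB genes, 537 of 8695 rose (6.18%) and 690 fell (7.94%). The shares of all genes on a design are the reference for its list counts below. The MB spread was larger, with a median residual SD of 0.523 against 0.214 on MA, and the share of MB probe sets that passed was 0.974% in the dimmest and 27.6% in the brightest of 4 equal classes of mean signal. On MA these shares were 26.9% and 65.1%, so in both designs a dim probe set passed less often.

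**Figure D1:**
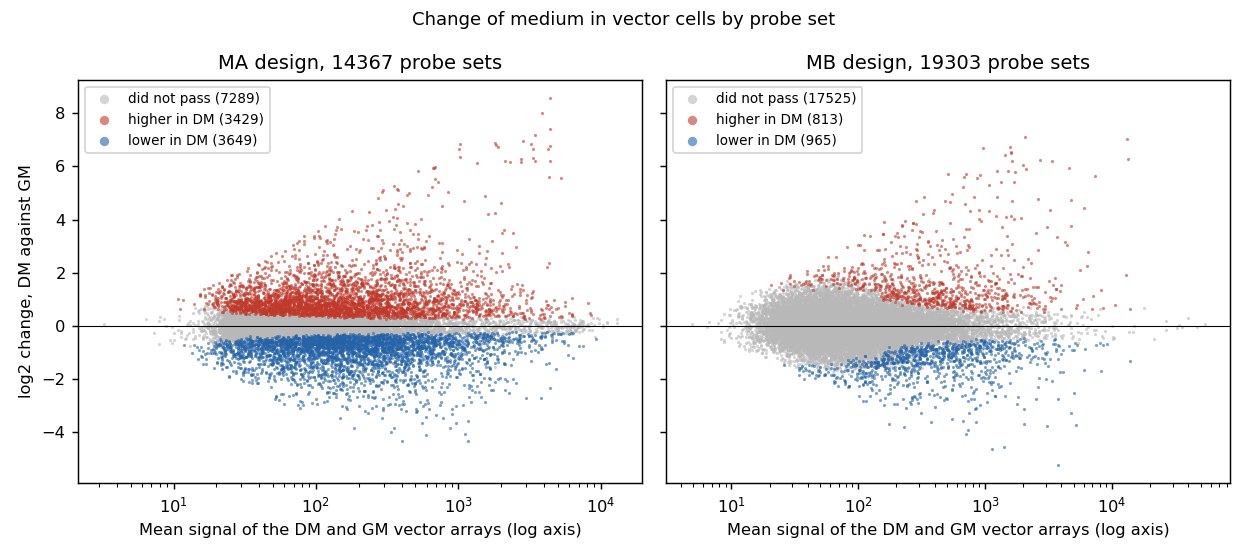
Each point is a probe set, with the mean signal of the 6 vector arrays of its design on a log axis and its log2 change, DM against GM, on the vertical axis; red points were higher and blue points lower in DM at an adjusted p under 0.05. Rises extend to 8.58 on MA, falls to -4.33, and the grey band of MB is wider than that of MA at low signal.

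A small set of genes went from low signals to high ones. On MA, 45 genes had a signal under 30 on every GM array and at least 150 on every DM array, against 8 genes in the opposite direction; on MB these numbers were 18 and 2. Most of the 45 encode proteins of muscle, among them Mb, Myh3, Actn2, Ttn, Cacna1s, Chrnd and Dysf. Others have no known sarcomere role: Ctrb1, a chymotrypsinogen otherwise known from the pancreas, Plagl1, an imprinted zinc finger factor, Dio2, the enzyme that activates thyroid hormone, Ddc, an amino acid decarboxylase, and the cytokine Il17b. Ctrb1 signals were 6.47, 7.77 and 5.60 in GM and 1062, 1379.8 and 1649 in DM, and Dio2 signals were 18.2, 15.7 and 26.1 in GM and 482, 561 and 255 in DM. In both genes every DM array lay far above every GM array, with changes of 5.97 ± 0.23 and 3.62 ± 0.23; like Plagl1 (4.31 ± 0.29), Ddc (2.99 ± 0.17) and Il17b (3.25 ± 0.21), they were picked with their values known. The 8 genes with the opposite pattern were Kif2c, Trip13 and Melk of mitosis, the DNA polymerase subunit Pole, the nucleoside kinase Dck, the AP-1 factor Fosl1, the sulfotransferase Chst1 and the quinone reductase Nqo1.

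The largest rise on MA was that of Mb, the oxygen store myoglobin, whose signals were 15.8, 3.78 and 4.88 in GM and 6943, 8051 and 11361 in DM. Myl1, an essential myosin light chain, read 12.3, 6.82 and 29.1 in GM and 6827, 8043 and 8138 in DM. Both were near the bottom of the signal range on every GM array and among the bright probe sets on every DM array, with changes of 8.58 ± 0.28 and 8.01 ± 0.21. Mybph, a myosin binding protein, read 73.7, 10.2 and 41.0 in GM and 6628, 8260.2 and 11188 in DM and rose by 7.41 ± 0.35. Fgf21, a secreted hormone of the fibroblast growth factor family that muscle releases under stress, read 42.3, 8.93 and 51.2 in GM and 4834, 5758 and 6409 in DM and rose by 6.97 ± 0.302. Itgb1bp2 (melusin), which binds the tail of beta-1 integrin, rose by 6.81 ± 0.25. The 15 largest rises also held Tnnc2, Tnni2, Tnni1 and Tnnt3 of the troponin complex, Ankrd2, Myh3, Mylpf, Ckm, Actn2 and Casq2, with changes down to 6.36.

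The largest falls were smaller than the largest rises. Kcnn4, a calcium-activated potassium channel of dividing cells, read 790.4, 848 and 683 in GM and 49.1, 26.3 and 7.36 in DM, and Mgp, an inhibitor of matrix calcification, read 2311, 1860.03 and 2576 in GM and 92.6, 91.1 and 109 in DM. No DM array of either gene reached the lowest GM array, and the changes were -4.33 ± 0.27 and -4.32 ± 0.16. Tm4sf1, a tetraspanin-like surface protein, fell by 4.08 ± 0.101, Aqp1, a water channel, fell by 3.84 ± 0.12, Chst1 fell by 3.47 ± 0.19, and Mmd, a membrane protein first described in macrophages, fell by 3.26 ± 0.14. The other 9 of the 15 largest falls were Kif2c, Fosl1, Tk1, Igfbp2, Mcm5, Cdc20, Ccnd1, Id3 and Fen1, described with their groups.

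**Figure D2:**
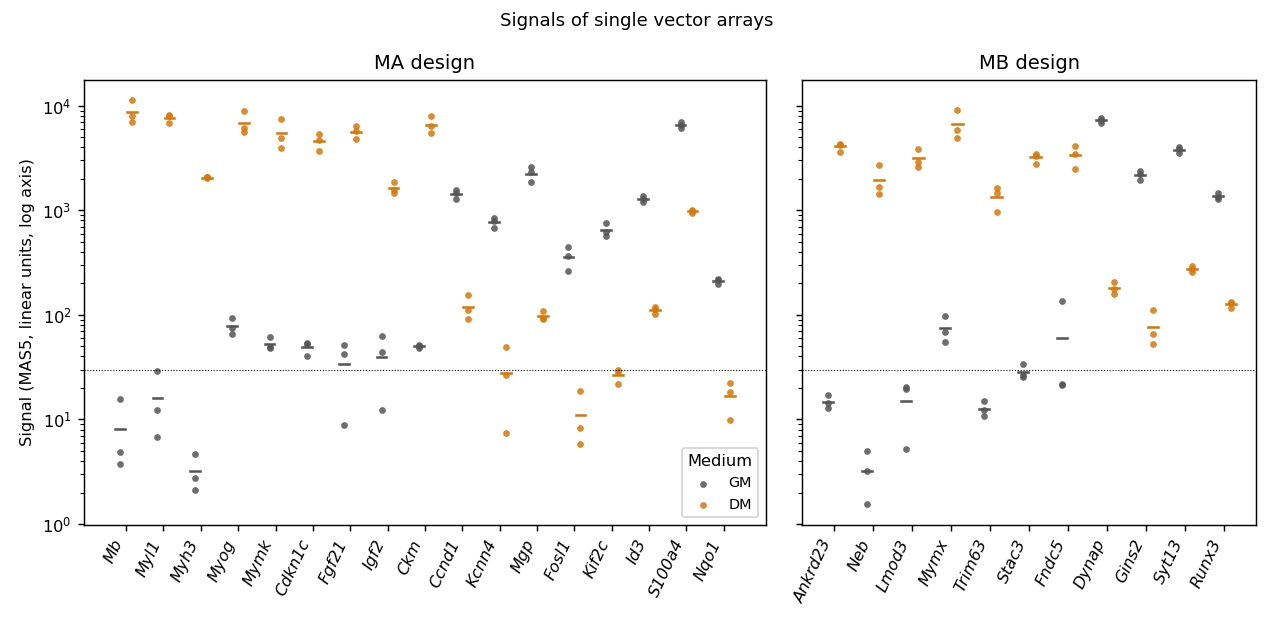
Signals of single vector arrays (points) and their means (bars) in GM (grey) and DM (orange) for genes named in the text, on a log axis; the dotted line is the filter signal of 30. In each of the genes plotted the DM and GM arrays are apart, with rises such as Mb and Neb on the left of each panel and falls such as Mgp and Dynap on the right.

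The start regions of the genes with the largest changes are shown because the factors that rise and fall in differentiation read short motifs near start sites. RefSeq promoters on GRCm38.p6, from 250 bases before to 50 bases after the annotated start, were found for 7012 of the 8639 MA genes. Shown are the 3 largest rises and falls with an entry used here, plus Pgam2 and Plk1, which were chosen after their motifs were seen. Capitals mark the E-box CAGCTG bound by myogenic bHLH factors, a MEF2 site, the TATA box TATAAA, the MCAT element CATTCC read by TEAD factors, CCAAT, and TTTGAA, the cell cycle homology region of mitotic genes; both strands were searched, sites may overlap, and each line reads 5′ to 3′ on the gene's strand.
Mb, chr15:77022678-77022977, strand -: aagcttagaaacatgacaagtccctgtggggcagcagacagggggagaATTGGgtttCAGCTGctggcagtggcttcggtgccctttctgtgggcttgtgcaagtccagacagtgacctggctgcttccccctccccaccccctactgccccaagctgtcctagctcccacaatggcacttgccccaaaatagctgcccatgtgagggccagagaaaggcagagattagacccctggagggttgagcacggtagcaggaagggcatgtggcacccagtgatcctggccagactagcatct
Myl1, chr1:66945007-66945306, strand -: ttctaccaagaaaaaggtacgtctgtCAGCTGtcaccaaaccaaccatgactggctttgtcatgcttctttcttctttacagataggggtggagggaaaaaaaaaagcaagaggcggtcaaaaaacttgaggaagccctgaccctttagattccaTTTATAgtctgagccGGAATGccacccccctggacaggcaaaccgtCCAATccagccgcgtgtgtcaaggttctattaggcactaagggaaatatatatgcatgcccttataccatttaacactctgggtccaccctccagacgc
Mybph, chr1:134193198-134193497, strand +: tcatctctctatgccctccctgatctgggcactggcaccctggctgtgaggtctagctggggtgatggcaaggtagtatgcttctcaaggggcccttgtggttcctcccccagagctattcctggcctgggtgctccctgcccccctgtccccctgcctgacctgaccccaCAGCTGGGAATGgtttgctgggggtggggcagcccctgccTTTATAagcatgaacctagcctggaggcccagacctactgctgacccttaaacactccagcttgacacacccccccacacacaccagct
Pgam2, chr11:5803747-5804046, strand -: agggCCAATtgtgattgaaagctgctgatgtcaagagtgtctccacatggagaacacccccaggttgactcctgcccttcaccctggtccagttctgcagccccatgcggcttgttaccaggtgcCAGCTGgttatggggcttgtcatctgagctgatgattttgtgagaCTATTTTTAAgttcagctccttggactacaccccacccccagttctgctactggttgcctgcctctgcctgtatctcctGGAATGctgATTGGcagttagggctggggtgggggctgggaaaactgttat
Kcnn4, chr7:24370013-24370312, strand +: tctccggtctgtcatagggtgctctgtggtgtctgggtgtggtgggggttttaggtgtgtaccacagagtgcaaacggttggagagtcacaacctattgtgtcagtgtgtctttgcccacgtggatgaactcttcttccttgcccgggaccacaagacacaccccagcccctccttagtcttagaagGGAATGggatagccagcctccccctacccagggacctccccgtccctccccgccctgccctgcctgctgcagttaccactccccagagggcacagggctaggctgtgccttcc
Tm4sf1, chr3:57301939-57302238, strand -: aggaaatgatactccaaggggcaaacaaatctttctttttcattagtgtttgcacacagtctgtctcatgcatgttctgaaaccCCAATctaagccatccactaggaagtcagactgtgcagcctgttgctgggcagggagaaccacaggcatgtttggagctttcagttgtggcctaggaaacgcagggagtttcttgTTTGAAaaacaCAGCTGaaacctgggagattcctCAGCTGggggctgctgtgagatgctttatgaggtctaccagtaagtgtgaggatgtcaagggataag
Kif2c, chr4:117178723-117179022, strand -: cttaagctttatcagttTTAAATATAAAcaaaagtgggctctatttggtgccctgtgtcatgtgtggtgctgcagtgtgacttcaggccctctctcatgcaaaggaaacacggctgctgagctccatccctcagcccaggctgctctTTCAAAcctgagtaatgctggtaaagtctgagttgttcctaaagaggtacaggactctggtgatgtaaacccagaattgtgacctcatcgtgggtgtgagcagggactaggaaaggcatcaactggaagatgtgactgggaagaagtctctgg
Plk1, chr7:122159185-122159484, strand +: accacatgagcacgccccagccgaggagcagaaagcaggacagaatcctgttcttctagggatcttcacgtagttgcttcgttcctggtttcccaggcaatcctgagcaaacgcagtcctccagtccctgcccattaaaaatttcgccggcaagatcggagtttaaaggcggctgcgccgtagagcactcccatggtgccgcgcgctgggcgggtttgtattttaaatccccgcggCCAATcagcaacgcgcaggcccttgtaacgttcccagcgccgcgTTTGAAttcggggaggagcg
Mb has 3 annotated starts, of which the most downstream is shown. Mb, Myl1, Mybph and Pgam2 each held a CAGCTG, Myl1 and Mybph also a TATAAA, Myl1, Mybph and Pgam2 a CATTCC, and Pgam2 a MEF2 site. Of the genes that fell, Tm4sf1 held a pair of CAGCTG, Kcnn4 a CATTCC, and Tm4sf1, Kif2c and Plk1 a TTTGAA. In Kif2c, the letters of a MEF2 site overlap those of TATAAA.

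Motif shares of the whole window were counted for the 72 promoters of 91 genes that rose by at least 8-fold and for the 144 of 175 genes that fell by at least 4-fold. CAGCTG stood in 34.7% of the first, 23 of the 144 promoters of the second and 15.2% of all 7012. A MEF2 site, an A and T rich consensus, stood in 12.5%, 1.39% and 1.6%. The serum response factor site (CArG box) was in 6.94%, 0.0% and 1.31%, CATTCC in 29.2%, 23 of 144 and 12.1%, and TATAAA in 20.8%, 6.25% and 7.89%. The E-box, the MEF2 site, the CArG box, the MCAT element and TATAAA were thus most frequent in promoters of the strong risers. TTTGAA had the opposite order, with 6.94% of risers, 27.1% of fallers and 11.7% of all. The E2F core GGCGGGA was in 6.94%, 23.6% and 20.3%, and CCAAT was near its overall share of 37.7% in both classes, at 40.3% and 41.0%. Among all 27025 promoters of the table, CAGCTG stood in 16.3%, a MEF2 site in 3.26%, the CArG box in 1.52%, CATTCC in 14.7%, TATAAA in 14.2%, TTTGAA in 18.3%, GGCGGGA in 11.2% and CCAAT in 37.6%. These are shares of letters in a window, with no test, and give no binding.

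Among regulators of myogenic transcription, 14 of 50 tested genes (of 70 listed) rose and 17 fell, with a median of -0.17, close to the shares of all MA genes; the changes at the ends were large. Myog, the bHLH factor of early differentiation, read 74.6, 66.1 and 92.8 in GM and 5574, 6104 and 8902 in DM, a change of 6.19 ± 0.17. Myod1, which acts upstream of it, read 1168, 1328 and 1215 in GM and 1562, 1831 and 2074 in DM, a change of 0.55 ± 0.13. Myog thus went from low to high signal on all arrays, while Myod1 was already bright in GM and moved little. Smyd1, a muscle methyltransferase, rose by 5.12 ± 0.18 and Mef2c by 3.32 ± 0.29. Id3, which sequesters E proteins, read 1189, 1274 and 1362 in GM and 114, 103 and 118 in DM and fell by 3.35 ± 0.104. Twist2, a bHLH repressor of Myod1, fell by 1.76 ± 0.17, the class II deacetylase Hdac7 fell by 1.28 ± 0.18 and Mrtfa, an actin-sensing coactivator of serum response factor, fell by 1.18 ± 0.17. On MB, 3 of 28 tested members rose and 3 fell.

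Nearly all tested members of the contractile list rose. A member low in GM can pass the filter through DM arrays alone, and could then hardly be counted as a fall. Listed genes that were not tested are not covered. Of 46 tested members (65 listed), 44 rose and 0 fell on MA, with a median change of 4.32, and 18 of 22 rose and 0 fell on MB, with a median of 4.34. Myh3, the embryonic myosin heavy chain, read 4.70, 2.11 and 2.74 in GM and 2061, 2042 and 2064 in DM, and Acta1, skeletal actin, read 202, 188 and 195 in GM and 7214, 9314 and 14294 in DM. Acta1 was measured in GM, whereas Myh3 had GM signals near the bottom of the range; their changes were 6.83 ± 0.11 and 5.56 ± 0.196. Actn2 of the Z-disc rose by 6.64 ± 0.14 and Mylpf, the fast regulatory light chain, by 6.67 ± 0.13. MB added thin filament proteins that MA did not represent: Neb, nebulin, read 4.94, 3.23 and 1.54 in GM and 2712, 1654 and 1429 in DM, and Lmod3, which nucleates thin filaments, read 5.17, 19.5 and 20.2 in GM and 3889, 2906 and 2598 in DM. The changes were 6.69 ± 0.34 and 6.74 ± 0.27, with no overlap of media. Klhl41, which stabilises nebulin, rose by 6.06 ± 0.32, the M-band protein Myom2 by 6.28 ± 0.19, the myosin chaperone Unc45b by 5.899 ± 0.35 and the titin-binding Ankrd23 by 7.101 ± 0.22. Fhl1 did not pass (-0.15 ± 0.11).

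Genes of excitation and calcium handling followed the sarcomere. On MA 25 of 33 tested members (54 listed) rose and 2 fell, with a median of 1.85, and on MB 10 of 16 rose and 0 fell. Ryr1, the calcium release channel, read 19.5, 18.8 and 18.3 in GM and 1080.5, 1189 and 1584 in DM, and Casq2, a calcium buffer of the sarcoplasmic reticulum, read 6.87, 16.4 and 8.11 in GM and 1926, 2003 and 2250.2 in DM. They were low on all GM arrays and rose by 5.24 ± 0.23 and 6.36 ± 0.15. The calcium pump Atp2a1 rose by 6.18 ± 0.15 and caveolin Cav3 by 5.14 ± 0.17. On MB, Stac3, which couples the voltage sensor to Ryr1, rose by 6.201 ± 0.36, and Srl, sarcalumenin, by 5.65 ± 0.22. The trimeric cation channels of the reticulum, Tmem38a and Tmem38b, rose by 3.94 ± 0.24 and 3.83 ± 0.14. Camk2g (-0.79 ± 0.13) and the sodium pump modulator Fxyd5 (-0.54 ± 0.16) fell; the latter did not pass without GM replicate 3 (adjusted p = 0.0702).

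Fusion and adhesion genes moved both ways, with 19 of 55 tested members (72 listed) higher (34.5%) and 18 lower (32.7%) and a median of 0.10. Of all MA genes, 23.2% were higher and 27.2% lower. Mymk, myomaker, read 48.2, 49.6 and 61.0 in GM and 3935, 4920.1 and 7432 in DM, and its partner Mymx, myomixer, on MB read 55.6, 98.6 and 69.3 in GM and 9126, 4938 and 5840.5 in DM. Both rose from low to high on every array, by 6.28 ± 0.19 and 6.19 ± 0.25. Integrin subunits divided. Of 11 tested on MA, 4 rose (36.4%) and 3 fell (27.3%), with a median of 0.52 and changes up to 2.27. Itga7, the laminin receptor subunit of muscle, rose by 1.55 ± 0.12, while Itga3 (-2.51 ± 0.17) and Itgav (-1.29 ± 0.22) fell. On MB, 0 of 10 rose and 1 fell, Itgb3 (-2.62 ± 0.38). The progenitor surface protein Cd34 fell by 1.87 ± 0.16. Sntb1, a syntrophin of the dystrophin complex, rose by 5.42 ± 0.43 on MB, where the adhesion protein Kirrel fell by 1.98 ± 0.16.

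Pairs of a widespread form and a form taken as that of muscle were set by hand in 38 groups, called families here. In 33 of these both forms were tested. Pfn2, Ptbp2 and Atp1b2, taken as muscle forms, are not specific to muscle, and none of them rose. Calr and Casq2 bind calcium in the reticulum but are not of 1 protein family. The muscle form rose in 26 and the widespread form fell in 22. In 20 families, Calr and Casq2 among them, the muscle form rose and the widespread one fell. Of all MA genes, 23.2% rose and 27.2% fell, but the pairs were chosen with earlier results known. The fall of Ampd3, also among the 20, had overlapping arrays (adjusted p = 0.0455). It did not pass without DM replicate 2 or 3 or GM replicate 1 or 4 (adjusted p from 0.0644 to 0.179). Among phosphoglycerate mutases, Pgam1 fell by 1.403 ± 0.101 and Pgam2 rose by 5.82 ± 0.15. Among glycogen phosphorylases Pygb fell by 1.67 ± 0.14 and Pygm rose by 5.95 ± 0.22. The same crossing held for phosphofructokinases (Pfkl -1.57 ± 0.12, Pfkm 2.82 ± 0.12), hexokinases (Hk1 -1.12 ± 0.14, Hk2 1.87 ± 0.15), filamins (Flna -2.47 ± 0.103, Flnc 2.03 ± 0.14), cofilins (Cfl1 -1.33 ± 0.15, Cfl2 1.56 ± 0.12) and fatty acid binding proteins (Fabp5 -3.14 ± 0.105, Fabp3 3.78 ± 0.15).

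The families differed in what happened to the widespread form. Pgam1 read 1838, 1762 and 1882 in GM and 723, 602 and 726 in DM and Pgam2 3.65, 2.39 and 4.70 in GM and 964, 1067 and 1065 in DM, so that the widespread form remained measured in DM. In creatine kinases both forms rose: Ckb read 489.98, 545 and 599 in GM and 3125, 4554 and 5829 in DM and Ckm read 51.4, 50.6 and 47.7 in GM and 5527, 6369.8 and 7955 in DM, with changes of 2.97 ± 0.18 and 6.66 ± 0.14. The cytochrome oxidase subunit Cox8a rose by 0.69 ± 0.17 beside 5.95 ± 0.22 for Cox8b, while Cox6a1 fell by 0.28 ± 0.104 beside a rise of 6.204 ± 0.19 for Cox6a2; the fall of Cox6a1 did not pass without DM replicate 1 (adjusted p = 0.121) or without any other single array but DM replicate 3. In some families neither form passed: neither adenine nucleotide carrier (Slc25a5 0.12 ± 0.31, Slc25a4 -0.061 ± 0.11), neither elongation factor (Eef1a1 0.24 ± 0.17, Eef1a2 0.36 ± 0.19) and neither of Fhl2 (-0.057 ± 0.18) and Fhl1. Profilins Pfn1 (-0.72 ± 0.18) and Pfn2 (-0.73 ± 0.15) both fell. Ptbp1, which represses muscle and neural exons, fell by 1.58 ± 0.13, and its paralogue Ptbp2 did not pass (0.12 ± 0.21).

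**Figure D3:**
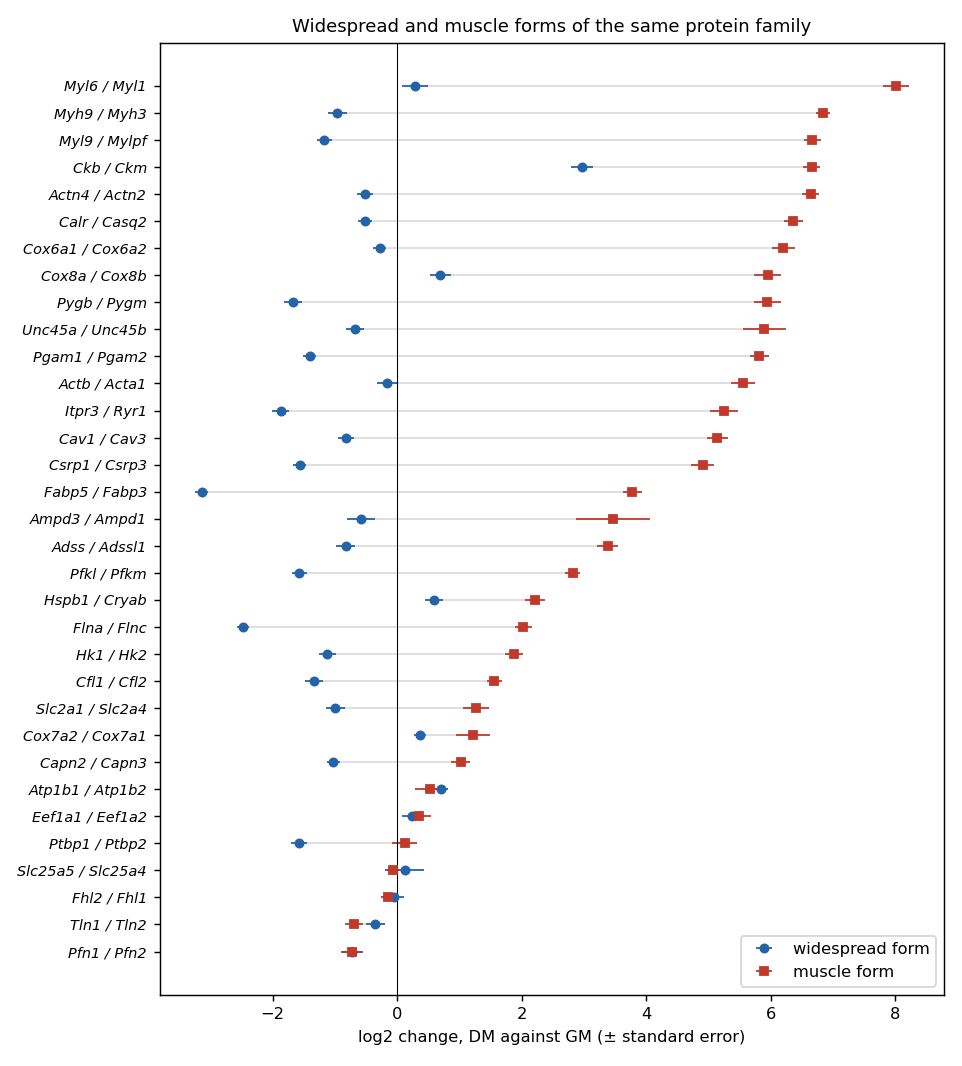
Log2 change with standard error of the widespread form (blue circles) and the form taken as that of muscle (red squares). The 33 families with both forms tested are ordered by the latter. Pfn2, Ptbp2 and Atp1b2 are drawn as red squares though they are not specific to muscle. In 20 families the red square is a rise and the blue circle a fall; at the bottom, Pfn1 and Pfn2 lie together below 0.

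Energy metabolism showed the muscle isoforms against a mixed background. In the list of muscle energy genes, 21 of 47 tested members (63 listed) rose (44.7%) and 13 fell (27.7%), with a median of 0.29. Of all MA genes, 23.2% rose and 27.2% fell. In the larger list of respiration, the TCA cycle and fatty acid oxidation, 58 of 109 (121 listed) rose (53.2%) and 9 fell (8.26%) on MA. The median was 0.32. On MB 2 of 29 rose (6.90%) and 1 fell (3.45%), against 6.18% and 7.94% of all MB genes. These MB counts ranged from 2 to 3 and from 0 to 2 over the alternatives run. Ndufs4 of the first respiratory complex rose by 2.197 ± 0.199, Dld, the shared dehydrogenase subunit of the oxoacid dehydrogenase complexes, by 2.01 ± 0.28 and Sucla2 of the TCA cycle by 1.59 ± 0.19. The falls held genes of fatty acid oxidation and also Idh2, an isocitrate dehydrogenase (-0.75 ± 0.12). Cpt1a, the carnitine transferase that admits long-chain fatty acids, read 312, 252 and 329 in GM and 158, 169.7 and 121 in DM. It fell by 0.93 ± 0.14, and Acaa2, also of fatty acid oxidation, fell by 0.69 ± 0.102. Pdk4, which inhibits pyruvate dehydrogenase, fell by 2.22 ± 0.19, and Gpd2 of the glycerol phosphate shuttle fell by 2.26 ± 0.196. Slc2a4, the insulin-regulated glucose carrier, rose by 1.27 ± 0.21 and the widespread carrier Slc2a1 fell by 0.995 ± 0.15. On MB, Prkag3, the muscle subunit of the AMP-activated kinase, rose by 6.42 ± 0.29, and Nmrk2, a nicotinamide riboside kinase, by 5.32 ± 0.23, the latter chosen after its value was seen.

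Most tested cell cycle and replication genes fell on MA, though a gene low in DM can pass the filter through GM arrays alone. On MA 67 of 71 tested members (80 listed) fell and 1 rose, with a median of -2.03; on MB 13 of 27 fell and 1 rose. Kif2c, a kinesin that removes tubulin from chromosome ends of spindles, read 622, 754 and 568 in GM and 28.2, 29.5 and 22.0 in DM, and Cdc20, which activates the anaphase complex, read 2337, 2252 and 1955 in GM and 169.7, 156 and 180.1 in DM. Mcm5 of the replicative helicase read 1078, 1108 and 925 in GM and 79.0, 83.2 and 48.0 in DM. Each of these DM values lay below each GM value, with changes of -3.99 ± 0.13, -3.58 ± 0.12 and -3.65 ± 0.18. Fen1, a flap nuclease of replication, read 1676, 1716 and 1475 in GM and 249, 50.3 and 231 in DM and fell by 3.33 ± 0.37. The gene that rose was Cdk2 (0.504 ± 0.13). The MB falls included Gins2, a helicase subunit (-4.64 ± 0.33), the checkpoint kinase Bub1b (-4.57 ± 0.23), the centrosome scaffold Pcnt (-4.09 ± 0.55) and Cdca8 of the chromosomal passenger complex (-3.26 ± 0.17). Pcna, the clamp of DNA polymerases, fell by 1.24 ± 0.17 from a mean of 2099.7 ± 31.4 (SD, n = 3) to 911 ± 266 (SD, n = 3).

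Nucleotide synthesis and chromatin genes fell in 36 of 53 tested cases (70 listed) and rose in 7, with a median of -0.96. Tk1, thymidine kinase, read 1374, 1913 and 1657 in GM and 97.3, 122 and 85.8 in DM and fell by 3.83 ± 0.15; the ribonucleotide reductase subunit Rrm1 fell by 2.79 ± 0.102, Dck fell by 2.77 ± 0.23 and the maintenance methylation factor Uhrf1 fell by 3.11 ± 0.14. Dnmt1, the maintenance methyltransferase, fell by 3.64 ± 0.31 on MB. Against this direction, the linker histone H1f2 read 518, 462 and 530.04 in GM and 2399, 2583 and 2701 in DM and rose by 2.31 ± 0.12. Cbx5, a heterochromatin protein, rose by 0.92 ± 0.12 and the purine salvage enzyme Hprt by 0.81 ± 0.11.

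Inhibitors of cyclin-dependent kinases did not move alike. In their list, which also holds p53 targets, 18 of 37 tested members (46 listed) rose and 8 fell. Cdkn1c (p57) read 40.7, 52.6 and 53.5 in GM and 3677, 4738 and 5317 in DM, and Cdkn1a (p21) read 1437, 1514 and 1377 in GM and 5504, 6166 and 8966 in DM. Cdkn1c came from near the filter signal, whereas Cdkn1a was bright in GM; the changes were 6.16 ± 0.21 and 2.21 ± 0.16. Gadd45a, a stress and arrest gene, rose by 3.59 ± 0.202, and Cdkn2d (p19) fell by 1.56 ± 0.105. Ccnd1, the cyclin that couples growth signals to the cycle, read 1468, 1578 and 1290.1 in GM and 110.2, 91.3 and 154 in DM and fell by 3.47 ± 0.15. On MB the kinase Cdk6, a partner of Ccnd1, read 1428, 1528 and 1546 in GM and 229.9, 73.0 and 216 in DM and fell by 3.15 ± 0.28.

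Secreted growth factors and their receptors were near the shares of all genes, with 17 of 80 ligands (122 listed) higher and 25 lower, and 21 of 93 receptors (131 listed) higher and 26 lower. Igf2, the insulin-like growth factor that myoblasts secrete as they differentiate, read 62.8, 12.4 and 44.4 in GM and 1479, 1871 and 1575 in DM and rose by 5.04 ± 0.27. Its binding proteins Igfbp2 and Igfbp6 fell, with changes of -3.65 ± 0.11 and -2.69 ± 0.14; Igfbp2 read 1710.4, 1723 and 1948 in GM and 129.995, 129 and 127 in DM. Igf2 and Cdkn1c are imprinted genes; Mest, another, rose by 1.84 ± 0.14 and was chosen after its value was seen. The activin antagonist Fst rose by 2.79 ± 0.18 and the Notch ligand Dll1 by 1.84 ± 0.15, while Bmp4 fell by 2.25 ± 0.18 and the chemokine Cxcl12 fell by 1.92 ± 0.13. Among receptors, Erbb3 rose by 3.38 ± 0.14, the urokinase receptor Plaur fell by 2.34 ± 0.15 and the thrombin receptor F2r fell by 2.13 ± 0.2003. On MB, the orphan nuclear receptor Nr4a3 read 21.3, 23.2 and 21.4 in GM and 995, 652 and 655 in DM and the oestrogen receptor Esr1 read 127, 81.0 and 152 in GM and 1314, 1024 and 844 in DM, rises of 4.37 ± 0.33 and 3.01 ± 0.24, with no overlap of media.

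AP-1 and immediate early factors went in opposite directions. Of 46 tested genes (54 listed), 18 rose (39.1%) and 14 fell (30.4%) on MA, against 23.2% and 27.2% of all MA genes. Fosl1 read 368, 451 and 261 in GM and 18.6, 5.82 and 8.34 in DM and fell by 3.85 ± 0.25, whereas Atf3, which dimerises with Jun proteins and also answers cell stress, read 2.27, 4.39 and 2.95 in GM and 214, 223 and 174 in DM and rose by 3.58 ± 0.21. Egr1 fell by 1.69 ± 0.15; Klf9 rose by 1.89 ± 0.32, and Runx1 by 1.46 ± 0.15. On MB, 5 of 17 fell and 1 rose. Runx3 read 1290.5, 1479 and 1329 in GM and 117, 129 and 134 in DM, a change of -3.28 ± 0.204, in a direction opposite to that of Runx1. The MAP kinase phosphatases Dusp4 and Dusp5, themselves induced by that kinase pathway, fell, with changes of -2.21 ± 0.203 and -3.29 ± 0.34.

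Matrix genes were near the shares of all MA genes (23.2% higher, 27.2% lower). Of 78 tested members (108 listed), 17 were higher (21.8%) and 24 lower (30.8%). Collagen VI, a microfibril collagen around muscle fibres, rose in all 3 chains tested, Col6a1 by 1.498 ± 0.103, Col6a2 by 1.77 ± 0.11 and Col6a3 by 0.64 ± 0.11. Among fibrillar collagens, Col5a2 fell by 1.02 ± 0.098 and Col1a1 rose by 1.46 ± 0.16. Col18a1, whose fragment is endostatin, fell by 2.16 ± 0.12. Of 23 collagens tested on MA, 5 rose (21.7%) and 4 fell (17.4%). Timp1, an inhibitor of matrix proteases, read 2566, 2714 and 2234 in GM and 339, 367 and 427 in DM and fell by 2.68 ± 0.12; nidogen Nid1 fell by 2.37 ± 0.15 and Ecm1 fell by 2.42 ± 0.104. Fbln5, which organises elastic fibres, rose by 2.17 ± 0.14.

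Genes of the non-muscle actin cytoskeleton fell in 43 of 76 tested cases (87 listed) and rose in 10, with a median of -0.50. Capg, which caps filaments, read 1275, 1550.2 and 1159.6 in GM and 151, 138 and 171 in DM. The stathmin Stmn1, which binds tubulin rather than actin, read 3405, 3629.9 and 3722 in GM and 678, 667 and 629 in DM. Their DM signals were below the GM signals on every array, and the changes were -2.99 ± 0.13 and -2.42 ± 0.095. Tagln2 fell by 2.28 ± 0.12, non-muscle myosin Myh9 fell by 0.96 ± 0.15, and on MB Cotl1, coactosin-like protein, fell by 3.91 ± 0.24. Actb did not pass (-0.15 ± 0.17). Enah (2.199 ± 0.15) and Vasp (1.27 ± 0.13), which lengthen filaments, rose, as did Rhob (1.38 ± 0.13). In the list of S100 proteins and annexins, calcium-binding proteins of membranes and cytoskeleton, 13 of 16 (21 listed) fell and 0 rose, with a median of -1.34; S100a4 read 6194, 6602 and 6985 in GM and 1008, 946 and 982 in DM and fell by 2.73 ± 0.101.

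The list of Atf4 targets and amino acid supply holds genes induced by Atf4, the factor of the amino acid response, and enzymes and carriers of amino acids. Of its 51 tested members (57 listed) 40 rose and 1 fell, with a median of 0.96; without DM replicate 3 or GM replicate 3 the falls numbered 2. Fgf21 belongs to this list. Cth, of cysteine synthesis, read 7.66, 23.7 and 19.6 in GM and 293, 258 and 194 in DM, and Gpt2, a mitochondrial alanine transaminase, read 166, 165 and 226 in GM and 1367, 1320.2 and 1362 in DM. Both rose, by 3.06 ± 0.26 and 2.78 ± 0.15. Trib3, a pseudokinase induced by Atf4, rose by 2.94 ± 0.21 and Mthfd2, of mitochondrial folate metabolism, by 1.92 ± 0.17. The gene that fell was Bcat1 (-0.54 ± 0.15). Chaperones of the endoplasmic reticulum did not follow: 7 of 30 tested (31 listed) rose and 16 fell. Herpud1, of protein degradation from the reticulum, rose by 2.24 ± 0.11 and Dnajb9 by 1.47 ± 0.17, while Sdf2l1 fell by 1.73 ± 0.28, Creld2 fell by 1.46 ± 0.14 and the translocon subunit Sec61a1 fell by 1.71 ± 0.14.

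In cholesterol and lipid synthesis, 8 of 47 tested genes (60 listed) rose (17.0%) and 17 fell (36.2%), against 23.2% and 27.2% of all MA genes, with a median of -0.066. Fabp5 read 1647, 1678 and 1591 in GM and 197, 165 and 159 in DM, and the lipid droplet protein Plin2 read 1958, 2041 and 1842 in GM and 447, 558 and 579 in DM; both fell without overlap of media, with changes of -3.14 ± 0.105 and -1.86 ± 0.12. Dhcr7, the last step of cholesterol synthesis, rose by 1.36 ± 0.14. In glutathione and detoxification 11 of 50 (64 listed) rose and 26 fell, with a median of -0.53: Nqo1 read 221, 199 and 217 in GM and 22.5, 18.2 and 9.85 in DM and fell by 2.86 ± 0.18, and the glutathione transferases Gsta4 and Gstm1 fell, with changes of -2.497 ± 0.12 and -1.88 ± 0.14. Txnip, an inhibitor of thioredoxin, rose by 1.401 ± 0.19 and Nfe2l1, a factor that drives proteasome genes, by 1.81 ± 0.14.

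Of 60 tested genes of ribosome biogenesis and translation (67 listed), 19 rose (31.7%) and 16 fell (26.7%), against 23.2% and 27.2% of all MA genes. Eif2s2 rose by 2.397 ± 0.1995 and Eif4a2 by 2.33 ± 0.204, and the nucleolar methyltransferase Fbl fell by 1.54 ± 0.18. Of 63 splicing and RNA-binding genes (82 listed) 28 fell and 6 rose, and without DM replicate 3 the rises numbered 16. Srsf9 fell by 1.69 ± 0.13 and Srsf1 fell by 1.35 ± 0.26; probe sets of Srsf1 passed in both directions, and their average did not pass (-0.32, adjusted p = 0.267). Rbm38 rose by 2.98 ± 0.18, and on MB the muscle splicing factor Rbm24 read 403, 291 and 307 in GM and 9983, 8543 and 9077 in DM and rose by 4.73 ± 0.18. Of 77 genes of the proteasome, ubiquitin ligases and autophagy (92 listed), 35 rose and 11 fell, with a median of 0.25. The sarcomere-associated ligase Trim54 rose by 4.05 ± 0.19 and, on MB, Trim63 (MuRF1) by 5.59 ± 0.35 and Asb2 by 4.03 ± 0.25. Trim63 read 10.7, 12.3 and 15.1 in GM and 1458, 967 and 1622 in DM. The immunoproteasome subunit Psmb10 fell by 1.15 ± 0.13 and its activator Psme1 fell by 1.14 ± 0.12.

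Among 18 circadian genes (23 listed) 9 rose and 2 fell; Bhlhe40 rose by 1.04 ± 0.11, Nr1d1 by 0.98 ± 0.23 and, on MB, Ciart by 1.88 ± 0.22, while Timeless, which also acts at replication forks, fell by 2.22 ± 0.19. Over the alternatives run, the rises in this list numbered between 3 and 10. Among 25 interferon, MHC class I and complement genes (50 listed) 4 rose and 10 fell. Over the alternatives run, these counts ranged from 2 to 5 and from 6 to 10. For both lists the reference is all MA genes, of which 23.2% rose and 27.2% fell. The largest change among the interferon, MHC class I and complement genes was a rise, that of C1qtnf3 (2.86 ± 0.1996). Ifitm1, Ifitm2 and Ifitm3, interferon-inducible membrane proteins, fell, with changes of -2.58 ± 0.18, -1.19 ± 0.13 and -2.01 ± 0.12.

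**Figure D4:**
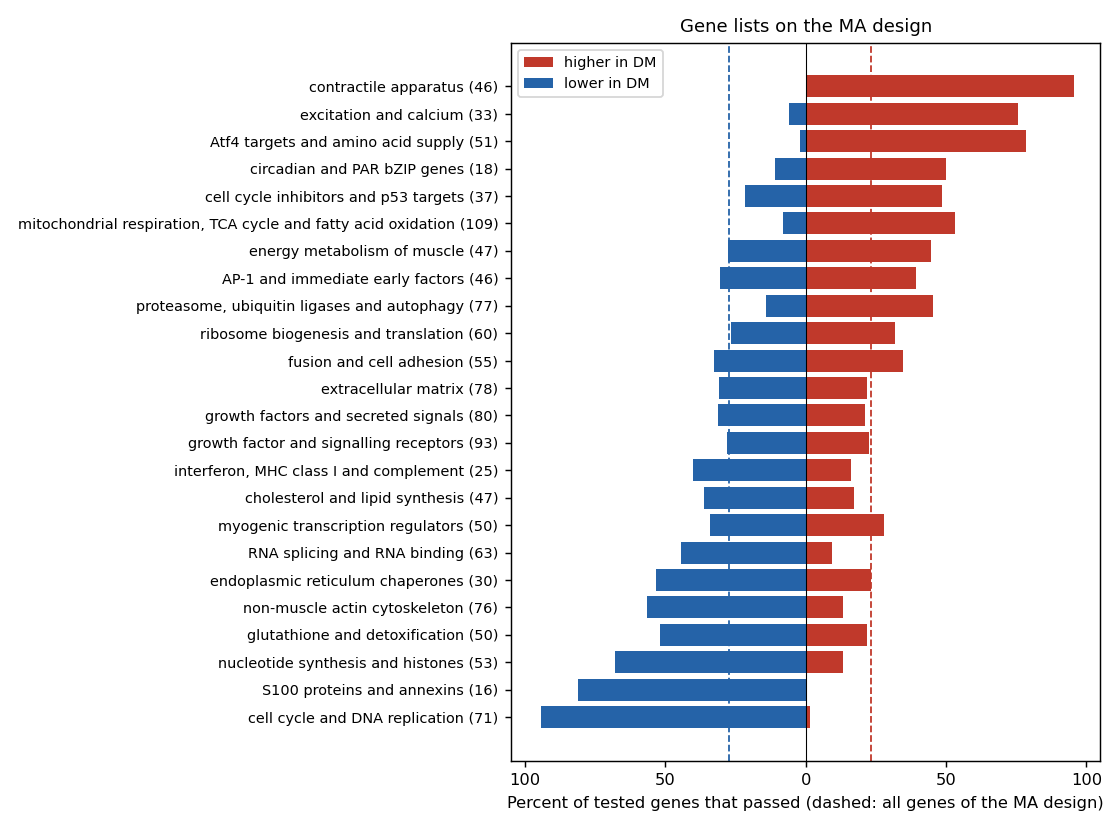
Percent of the tested genes of each list on the MA design that were higher (red, right) or lower (blue, left) in DM, ordered by median change, with the number tested in brackets; dashed lines mark 23.2% and 27.2%, the shares of all genes. The contractile list lies at the top with 44 of 46 higher and the cell cycle list at the bottom with 67 of 71 lower.

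Larger families outside these lists were counted by symbol or annotation. On MA, 23.2% of all genes rose and 27.2% fell, and on MB 6.18% and 7.94%. Of 170 solute carriers on MA 31 rose (18.2%) and 37 fell (21.8%); the anion exchanger Slc4a3 rose by 3.23 ± 0.17 and Slc12a2, the sodium, potassium and chloride carrier, by 2.78 ± 0.195, whereas Slc25a10, the dicarboxylate carrier, fell by 1.67 ± 0.14. Of 74 mitochondrial ribosomal proteins 18 rose (24.3%) and 14 fell (18.9%), with changes between -1.13 and 1.31. Zinc finger genes of the Zfp series rose in 25 of 93 cases (26.9%) and fell in 13 (13.98%). On MB, 9 of 215 rose (4.19%) and 10 fell (4.65%), and without GM replicate 2 these numbered 4 and 7. Zfp106 rose by 1.64 ± 0.16 on MA and the mRNA decay factor Zfp36l2 fell by 2.04 ± 0.18, opposite to Zfp36l1 at 1.97 ± 0.18. Of 97 transmembrane proteins named Tmem, 25 rose (25.8%) and 19 fell (19.6%) on MA. On MB Tmem182 read 137, 116 and 144 in GM and 8912, 7561 and 10738 in DM and rose by 5.93 ± 0.197, while Tmem107, a protein of the ciliary transition zone, fell by 2.32 ± 0.16. Of 1163 long noncoding RNAs tested on MB, 31 rose (2.67%) and 21 fell (1.81%). These shares were smaller than those of all MB genes, in a comparison not matched for signal level. Without GM replicate 1 the falls among these noncoding RNAs numbered 10, and without GM replicate 3 they numbered 12. The RIKEN transcript 1700086L19Rik read 21.5, 17.5 and 11.6 in GM and 545, 319 and 414 in DM and 2700038G22Rik read 364, 405 and 437 in GM and 58.3, 42.4 and 39.9 in DM, changes of 3.77 ± 0.39 and -2.76 ± 0.33.

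The MB design held further genes of large change outside the usual muscle lists. Dynap, a membrane protein that binds dynactin, had the largest fall of either design, reading 6901, 7644 and 7363 in GM and 206, 159 and 177 in DM. Syt13, an atypical synaptotagmin, read 3828, 4021 and 3549.6 in GM and 277, 296 and 255 in DM. Both were bright in GM and lower on every DM array, with changes of -5.23 ± 0.15 and -3.71 ± 0.15. Among the rises, Pgm5, a phosphoglucomutase relative of adhesion sites, rose by 6.54 ± 0.28, and Dhrs7c, a dehydrogenase of the sarcoplasmic reticulum, by 6.49 ± 0.23. Fndc5, the precursor of irisin, read 21.8, 137 and 21.5 in GM and 2490.02, 3443 and 4123 in DM and rose by 5.81 ± 0.47; the haemojuvelin gene Hjv rose by 4.78 ± 0.21. Cfap52 and Tekt5, known from cilia and sperm tails, rose by 5.68 ± 0.41 and 5.22 ± 0.28, and the microtubule protein Map4, given by its brightest probe set, by 5.72 ± 0.31. Fndc5, Hjv, Cfap52, Tekt5 and Map4 were picked with their values known.

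The designs could be compared on the 100 probe sets that passed the filter on both. Of these, 52 passed the test on MA and 22 on MB. The 20 that passed on both had the same direction, and the median absolute difference of the changes was 0.107. Changes of these shared probe sets lay between -1.10 and 1.55 on MA and between -1.13 and 1.63 on MB, so larger changes were not compared in this way. Of 2636 genes tested on both, mostly through different probe sets, 271 passed on both, 258 in the same direction and 13 in opposite ones; over all 2636 the median absolute difference of the changes was 0.488 and Pearson's r 0.499, across genes, which are not independent replicates. Pde4dip, a scaffold of the Golgi and centrosome, was one of the 13, with 3.09 ± 0.16 on MA and -1.205 ± 0.32 on MB, where it did not pass without DM replicate 1 (adjusted p = 0.0555), DM replicate 2 (0.08) or GM replicate 2 (0.101), with no trend (0.0501) or with its probe sets averaged (-0.19, adjusted p = 0.826). Cad, the enzyme of pyrimidine synthesis, was another, with -0.995 ± 0.14 and 1.93 ± 0.48. The MB probe set of Cad was dim, at 11.1, 9.69 and 11.4 in GM and 81.7, 89.1 and 77.9 in DM. Pde4dip and Cad were picked with their values known. The labels do not say whether the MA and MB arrays were hybridised with the same RNA.

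**Figure D5:**
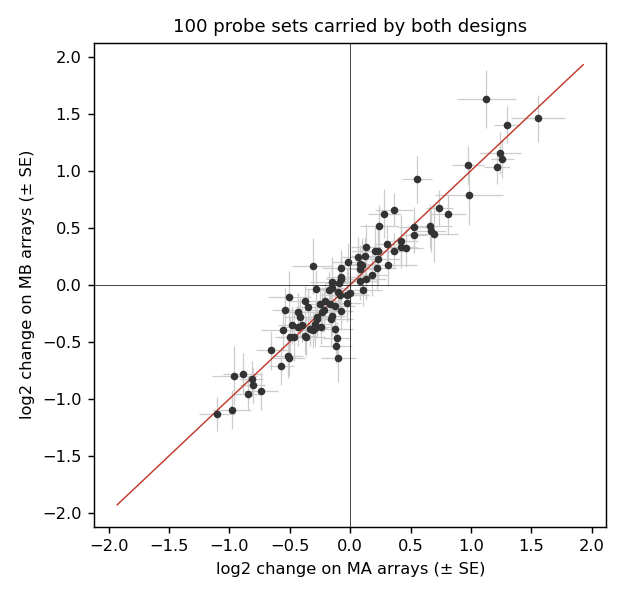
Log2 change on MA arrays against that on MB arrays, with standard errors, for the 100 probe sets tested on both designs; the red line marks equal values. The points follow the line, with a median absolute difference of 0.107.

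Within a design, probe sets of the same gene could also disagree. On MA 93 of the 1276 genes with several passing probe sets had passing probe sets in both directions (7.29%), and on MB 11 of 188 (5.85%). Tpm1, a tropomyosin with many splice forms, was -2.24 ± 0.098 at 1 probe set and 2.37 ± 0.14 at another. The falling probe set read 1816, 1752 and 1849 in GM and 356, 359 and 396 in DM, and the rising one read 1253, 1384 and 1527 in GM and 6041, 6999 and 8889.5 in DM. Arrays of the media did not overlap at either, so the gene has no single direction here. Tpm3 had -1.89 ± 0.104 and 1.62 ± 0.197, the calcium pump Atp2a2 -0.68 ± 0.12 and 4.68 ± 0.13, and the Z-disc proteins Pdlim5 and Pdlim7 -1.35 ± 0.203 and 2.44 ± 0.24, and -1.199 ± 0.11 and 1.59 ± 0.12. The transcript regions of these probe sets were not compared here. For these genes the value given by the brightest probe set holds for that probe set only.

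The medium response was set against that of the shRNA cells over all probe sets, for 6 fixed genes and for a few muscle genes picked with their values known. The difference of the responses passed for 1430 MA probe sets (9.95%) and 75 MB probe sets (0.389%). Of the 6 genes, Ccnd1 passed: the change in vector cells minus that in shRNA cells was -1.899 ± 0.21 log2 units (adjusted p = 7.5e-05). The differences of Myod1 (adjusted p = 0.48), Myog (0.898), Ckm (0.167), Myh3 (0.058) and Cdkn1a (0.458) did not pass, which does not show that the responses were alike. Nor do these genes stand for all muscle genes. Of those picked, Actn2 (1.81 ± 0.19, adjusted p = 5.2e-05) and Atp2a1 (1.47 ± 0.21, 0.00056) passed, and Mylpf (0.41 ± 0.18, 0.191) and Myl1 (0.43 ± 0.29, 0.432) did not.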

How the data were processed

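Total RNA of C2C12 cells with the empty vector was hybridised to 3 GM and 3 DM arrays per design. For every array the authors deposited a linear intensity of each probe set. The submitters' processing notes name MAS5, whose version and settings, like the detection calls, were not given in the sources used here. The values had already been scaled, with a trimmed mean of 150 per array, and no further scaling was applied. Arrays give no count of molecules, so their number limits the precision. Probe sets were named through the platform annotation: of 22626 MA probe sets other than 64 controls, 20380 had 1 symbol, 691 several and 1555 none, and of 22511 on MB 14661, 245 and 7605. Symbols were compared with RefSeq on GRCm38.p6, which changed 0. Probe sets with several symbols named no gene.

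Signals were analysed as log2(signal + 15). A probe set was tested where at least 3 of the 12 arrays of a design reached 30, which left 14367 on MA and 19303 on MB; a gene can pass this filter through its brighter medium alone, so counts over tested members are descriptions. limma 3.58.1 (R 4.3.3) fitted 4 group means to the 12 arrays of each design (8 residual degrees of freedom), with eBayes (trend on) and p-values adjusted by Benjamini-Hochberg over each design, at a threshold of 0.05; the fit was tested on simulated data. Each design was tested apart. Alternatives were pseudocounts of 5 and 50, filters of none and 150, vector arrays only, quantile normalization, a replicate block, no trend, array weights, a threshold of 0.01, averaged probe sets of a gene, and each array left out. Genes were named by rule: the 15 (MB 12) largest rises and falls that passed without overlap of groups and with a higher mean of at least 150, up to 4 rising and 4 falling members per list, both forms of each pair, up to 5 per direction of the RIKEN, Zfp and Tmem families, the 8 genes with the widest opposed probe sets, and 6 fixed genes. The members, lists and rule were chosen with earlier results of these data known.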

Additional observations from a re-analysis of the deposited data

Results flagged for a closer look

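The fall of Ccnd1 in differentiation medium differed between constructs by a test of the difference itself. The response of vector cells minus that of shRNA cells was -1.899 ± 0.21 log2 units on the MA design (limma adjusted p = 7.5e-05), with vector arrays at 1468, 1578 and 1290.1 in GM and 110.2, 91.3 and 154 in DM.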

How the results depend on the processing

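The counts of MA probe sets higher and lower in DM stayed within 1.5 times the reported 3429 and 3649 under the alternatives run, except that a filter at 150 gave 2046 higher. Leaving out 1 array gave 3025 to 3657 higher and 3214 to 3832 lower. For MB, a threshold of 0.01 gave 503 higher and 566 lower and a fit with no trend 634 lower, against 813 and 965; leaving out 1 array gave 636 to 782 higher and 662 to 951 lower. The cause of the no-trend difference was not tested. The labels tie no replicate number to a shared source, and the samples were taken as unpaired. On MA, which shares only 2 numbers, same-numbered deviations correlated at 0.166 and 0.293, above the -0.277 to 0.156 of differently numbered ones; on MB these were 0.012, -0.0374 and 0.025 against -0.0495 to 0.0384. A replicate block gave 3341 higher and 3472 lower on MA and 828 and 947 on MB.
Of 4669 alternative values for 293 named MA genes, 4565 kept direction and side of the threshold, 83 no longer passed (22 genes), 10 newly passed and 11 changed sign; for 98 MB genes these were 1509, 47, 2 and 5 of 1563. With the probe sets of a gene averaged, the sign changed for Actb (0.34), Eif4ebp2 (0.15), Lrrfip1 (-0.97), Slc25a5 (-0.21), Tln1 (0.72) and Tpm1 (-0.23) on MA and Pank2 (0.017), Trak1 (0.14) and Zhx3 (-0.042) on MB. Slc25a5 was -0.036 with array weights. Leaving out 1 array gave -0.20 to 0.12 for Fhl2, -0.038 and -0.012 to 0.41 for Ptbp2, -0.086 to 0.26 for Slc25a5 and, on MB, -0.19 and -0.12 to 0.35 for Baz2b.

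Precision was limited by 3 arrays per group, by the wide spread of MB, and at low signal, where the pseudocount shrinks changes and no detection calls were used.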
